A study of Drosophila melanogaster with 4 samples.

Results

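The genes described here are 34 sarcomere and muscle differentiation genes of *Drosophila melanogaster*, taken from the count files by FlyBase symbol. All 34 were found among the 17869 FlyBase gene identifiers of the deposited count files, which hold 23932 features in all. They were placed by role into 6 thick filament genes, 14 thin filament genes, 10 genes of the Z-disc, the connecting filaments and other giant proteins, 2 calcium handling genes and 2 regulators.

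The samples were whole brains of wandering larvae of the last instar (WL3), and every library came from animals carrying *insc*-GAL4, a driver active throughout the neuroblast lineages. It drove RNAi against *white*, the control, in 2 libraries and RNAi against *orb2* in the other 2. Each library was a pool of 60 brains dissected 20 at a time, sequenced as polyA RNA. The labels distinguish the libraries of a group only by a sample number. The study's methods give 60 brains for each of 2 replicates of a genotype. P-values therefore measure the spread between pools of brains, any technical spread included. Levels are given as CPM, a gene's counts scaled to a library total of 1000000 after correction by edgeR's TMM factor, and paired values are in the order replicate 1, replicate 2.

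The targeted gene was measured first. *orb2* had 17.1 and 15.3 CPM under the *white* RNAi label (16.2 ± 1.28, SD, n = 2) and 105.3 and 53.6 CPM under the *orb2* RNAi label (79.4 ± 36.6, SD, n = 2). The level counted for *orb2* was therefore higher in both libraries that carry its name, with a log2 difference of 2.29 (SE 0.394). This difference missed the threshold in edgeR's quasi-likelihood test (adjusted p = 0.9998) and passed it in DESeq2 (adjusted p = 9.785e-05). Whether these counts came from the gene's own transcript was not tested. As that level goes against the label, each library is called by what it is labelled throughout, and every direction below is one between labels.

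A sarcomere is the repeating contractile unit of striated muscle. Thick filaments of myosin slide along thin filaments of actin when calcium released from the sarcoplasmic reticulum reaches the troponin complex, which moves tropomyosin on actin. Thin filaments are anchored in Z-discs, and giant titin-like proteins link Z-disc and thick filament. The transcription factor Mef2 drives many of these genes in muscle. Brain tissue has no striated muscle of its own, but several of the 34 genes, such as those for alpha-actinin, tropomyosin, tropomodulin and the calcium pump, are also used by neurons and other cells.

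The libraries held 34610836 counts in the shallowest, *white*-labelled replicate 2, to 75412298 counts in the deepest, *orb2*-labelled replicate 1. Their sum exceeds the number of reads given in the study's methods, so whether each count stands for 1 read was not settled. The *white*-labelled libraries stood further apart than the *orb2*-labelled libraries: the scaled median absolute deviation of the log2 ratio between replicates over the 13082 features that passed edgeR's filter on low counts was 1.05 for the *white*-labelled and 0.369 for the *orb2*-labelled pair. Over the 32 sarcomere and muscle genes that passed the filter it was 1.98 and 0.389. Neuron markers (12 genes, 2505 to 4526 CPM in sum), neuroblast markers (5 genes, 351.5 to 441.1 CPM) and glia markers (6 genes, 577 to 980.9 CPM) were found in all 4 libraries.

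Across the 34 genes, 19 were higher in both *orb2*-labelled libraries than in both *white*-labelled libraries, none was lower in both, and 15 overlapped. Of all features tested, 18.5% lay above in this way and 11.7% below. Thick filament genes lay above in 4 of 6 cases, thin filament genes in 8 of 14, genes of the Z-disc and giant proteins in 5 of 10, regulators in 2 of 2 and calcium handling genes in 0 of 2. The median log2 difference of the 32 genes tested, *orb2*-labelled over *white*-labelled libraries, was 1.12 beside 0.02 for all features tested. Of the 32, 30 were above 0 beside 52.5% of all features. The genes were chosen with earlier results of these data known, so these comparisons are a description and not a test. Leaving out 1 library gave medians of these genes from 0.94 (without *white*-labelled replicate 1) to 1.89 (without *white*-labelled replicate 2). In whole brains, more cells of a type and more RNA per cell cannot be told apart.

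In edgeR's quasi-likelihood test, none of the 32 genes passed the threshold of a log2 difference of over 0.5 with an adjusted p (Benjamini-Hochberg) under 0.05, and the adjusted p was 0.9998 for each. No feature of the whole table passed it either (0% higher and 0% lower). At an unadjusted p under 0.05, 10 of them were higher and 0 lower, beside 3.68% and 0.894% of all features. DESeq2 without shrinkage called 6 of the genes, all higher in the *orb2*-labelled libraries, beside 0.607% of features called higher and 0.273% called lower. These were *Prm*, *Mlp84B*, *Mp20*, *Mf*, *up* and *Zasp52*. In edgeR, calls appeared when either *orb2*-labelled library was left out. Without replicate 1, *Mhc* and *Prm* were called higher, beside 0.653% of features called higher and 0.323% lower. Without replicate 2, *Mf*, *Mhc*, *Mlp84B*, *Mp20*, *Prm* and *up* were called higher, beside 0.198% higher and 0.36% lower. None of the genes was called when either *white*-labelled library was left out.

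**Figure D1:**
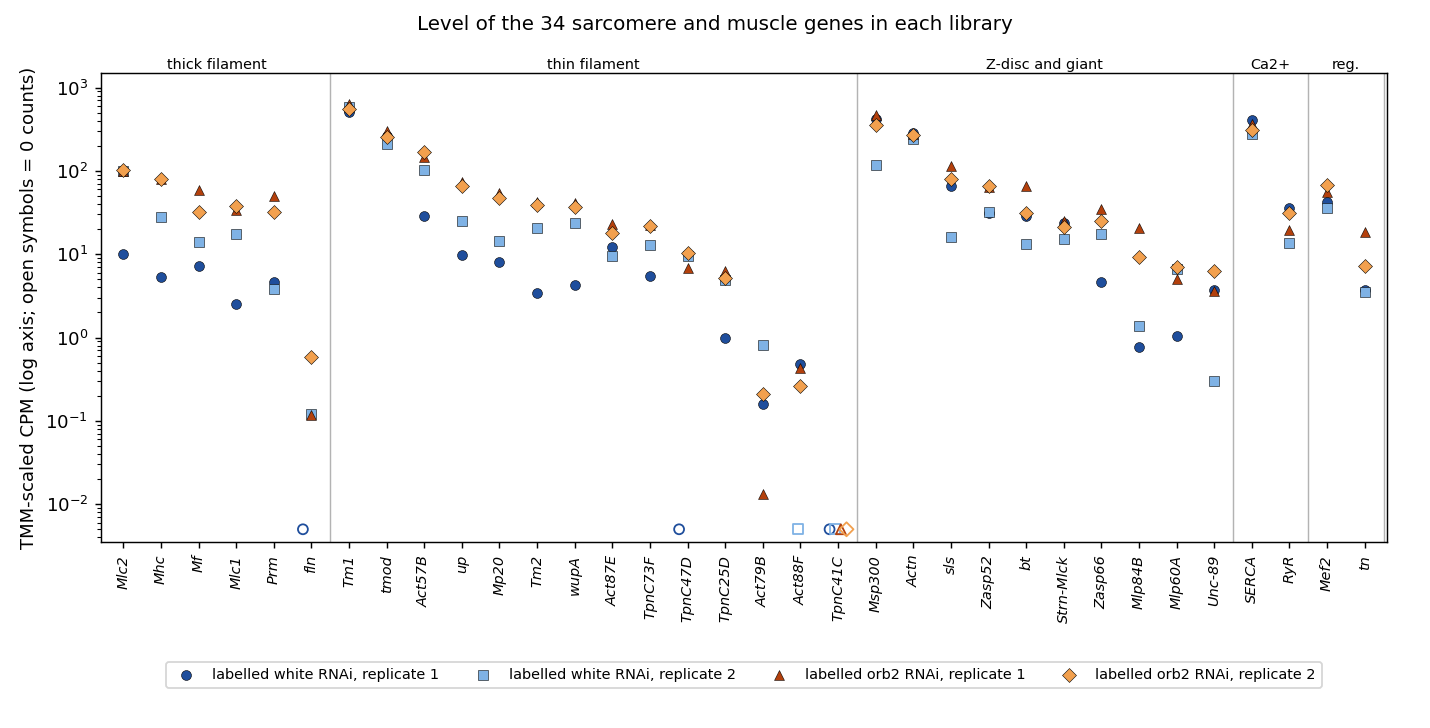
Level of each of the 34 genes in each library, in TMM-scaled CPM on a log axis, grouped by role and ordered by mean level; circles and squares are the *white*-labelled replicates 1 and 2, triangles and diamonds the *orb2*-labelled replicates 1 and 2, and open symbols at the base are 0 counts. The symbols of *Tm1*, *tmod*, *Actn* and *SERCA* lie nearly on each other, while those of *Mhc*, *Prm* and *Mlp84B* are split between the labels.

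Among the thick filament genes, the genes for the filament backbone and the myosin motor were several times higher in the *orb2*-labelled libraries, with *Prm* the clearest. *Prm* (FBgn0003149, 3L:8732858-8745310, minus strand, BDGP6.54) encodes paramyosin, a rod protein in the core of invertebrate thick filaments. It stood at 4.59 and 3.78 CPM in the *white*-labelled libraries (4.18 ± 0.570, SD, n = 2) and at 49.8 and 32.4 CPM in the *orb2*-labelled libraries (41.1 ± 12.3, SD, n = 2). The *white*-labelled replicates were close to each other and the *orb2*-labelled replicates both far above them. The log2 difference was 3.29 (SE 0.345), with adjusted p = 0.9998 in edgeR and 4.455e-12 in DESeq2.

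*Mhc* (FBgn0264695, 2L:16766566-16788766, plus strand), the single muscle myosin heavy chain gene of the fly, behaved differently within the control label. It had 5.40 and 27.8 CPM in the *white*-labelled libraries (16.6 ± 15.9, SD, n = 2) and 80.4 and 79.0 CPM in the *orb2*-labelled libraries (79.7 ± 0.955, SD, n = 2). The groups did not overlap, the *orb2*-labelled replicates were nearly equal, and *white*-labelled replicate 1 was the lowest library by far. The log2 difference of 2.27 (SE 0.798) had an adjusted p of 0.9998 in edgeR and 0.0903 in DESeq2.

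The light chains, which bind the neck of the myosin head, split in the same way between the *white*-labelled replicates. *Mlc1*, the essential light chain, had 2.49 and 17.7 CPM in the *white*-labelled and 34.1 and 38.4 CPM in the *orb2*-labelled libraries, with no overlap. *Mlc2* (FBgn0002773, 3R:30171438-30174551, minus strand), the regulatory light chain, had 10.1 and 101.0 CPM in the *white*-labelled and 98.6 and 103.0 CPM in the *orb2*-labelled libraries. For *Mlc2* only *white*-labelled replicate 1 stood apart: replicate 2 lay between the *orb2*-labelled libraries. Its log2 difference was 0.86 (SE 1.02, adjusted p = 0.9998 in edgeR), and it was 0.01 without *white*-labelled replicate 1 and 3.32 without replicate 2.

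*Mf*, which encodes the thick filament protein myofilin, had 7.30 and 14.2 CPM in the *white*-labelled libraries and 59.3 and 32.5 CPM in the *orb2*-labelled libraries. The groups did not overlap, and the log2 difference was 2.10 (SE 0.489), with adjusted p = 0.9998 in edgeR and 0.0117 in DESeq2. *fln*, the flight muscle protein flightin, had 0, 4, 9 and 33 counts in the 4 libraries and was too low to test. Of its exon bases, 61.6% are shared with an antisense RNA, and the use of strand in counting is not given in the sources used here.

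Among the thin filament genes, genes such as *Mp20*, *up*, *wupA* and *Tm2* were higher in both *orb2*-labelled libraries, whereas *Tm1* and *tmod* were at nearly 1 level in all 4. *Mp20*, a calponin-like muscle protein, had 8.17 and 14.4 CPM in the *white*-labelled libraries (11.3 ± 4.42, SD, n = 2) and 53.7 and 47.3 CPM in the *orb2*-labelled libraries (50.5 ± 4.53, SD, n = 2). The gap between the labels was wider than the spread within either. The log2 difference was 2.16 (SE 0.358), with adjusted p = 0.9998 in edgeR and 9.785e-05 in DESeq2.

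*up* encodes troponin T, the troponin subunit that binds tropomyosin. It had 9.67 and 25.2 CPM in the *white*-labelled libraries and 72.8 and 66.2 CPM in the *orb2*-labelled libraries, a log2 difference of 2.00 (SE 0.506) with adjusted p = 0.9998 in edgeR and 0.0181 in DESeq2. *wupA*, troponin I, the inhibitory subunit, had 4.24 and 23.7 CPM in the *white*-labelled and 40.9 and 36.8 CPM in the *orb2*-labelled libraries. Both genes kept the labels apart, with *white*-labelled replicate 1 the lowest library. *Tm2*, a muscle tropomyosin, showed the same order at 3.39 and 20.9 CPM in the *white*-labelled and 42.7 and 38.9 CPM in the *orb2*-labelled libraries.

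Troponin C, the calcium sensor, is encoded by several genes, 4 of which are on the list. *TpnC73F* had 5.55 and 12.9 CPM in the *white*-labelled and 22.1 and 21.6 CPM in the *orb2*-labelled libraries. *TpnC25D* had 0.991 and 4.94 CPM in the *white*-labelled and 6.24 and 5.19 CPM in the *orb2*-labelled libraries. Neither gene overlapped between the labels, though for *TpnC25D* the highest *white*-labelled and the lowest *orb2*-labelled value were close. *TpnC47D* had 0 counts in *white*-labelled replicate 1, against 312 counts in *white*-labelled replicate 2 and 526 and 596 counts in the *orb2*-labelled libraries. Taking 3 counts in that library as its floor (0.048 CPM), *TpnC47D* was at least 198-fold higher in the other *white*-labelled library and at least 144-fold and 217-fold higher in *orb2*-labelled replicates 1 and 2. At 9.51 CPM, *white*-labelled replicate 2 lay between the *orb2*-labelled libraries, at 6.91 and 10.4 CPM. *TpnC41C*, used in adult flight and jump muscle, had 0 counts in every library.

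Of the muscle actins, *Act57B* and *Act87E* are used in larval muscle and were well detected in all 4 libraries. *Act57B* had 28.9 and 101.4 CPM in the *white*-labelled libraries (65.1 ± 51.3, SD, n = 2) and 147.5 and 169.6 CPM in the *orb2*-labelled libraries (158.6 ± 15.7, SD, n = 2). The libraries did not overlap between labels, and the log2 difference was 1.28 (SE 0.619, adjusted p = 0.9998 in edgeR). *Act87E* had 12.4 and 9.45 CPM in the *white*-labelled and 23.3 and 17.9 CPM in the *orb2*-labelled libraries, and here *white*-labelled replicate 1 was not the lower of its pair.

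The actins of adult muscle were near the limit of detection. *Act79B* had 10 and 27 counts in the *white*-labelled and 1 and 12 counts in the *orb2*-labelled libraries. It was the gene with the most negative log2 difference, -2.12 (SE 1.83, adjusted p = 0.9998 in edgeR), a value made from these few counts that was -1.20 without *orb2*-labelled replicate 1 and -0.54 without *white*-labelled replicate 2. *Act88F*, the flight muscle actin, had 30 and 0 counts in the *white*-labelled and 33 and 15 counts in the *orb2*-labelled libraries. Neither of these actins separated the labels. Actin coding sequences are nearly identical, and how reads with several matches were counted is not given in the sources used here, so the split of counts among the actins is uncertain.

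*Tm1*, a tropomyosin gene with cytoplasmic as well as muscle isoforms, had 504.4 and 586.8 CPM in the *white*-labelled libraries and 630.9 and 556.1 CPM in the *orb2*-labelled libraries. Its groups overlapped, with a log2 difference of 0.12 (SE 0.232, adjusted p = 0.9998 in edgeR). *tmod*, tropomodulin, which caps the pointed ends of actin filaments, had 263.3 and 212.0 CPM in the *white*-labelled and 301.0 and 252.3 CPM in the *orb2*-labelled libraries, and its groups overlapped too (log2 difference 0.22, SE 0.228, adjusted p = 0.9998 in edgeR).

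**Figure D2:**
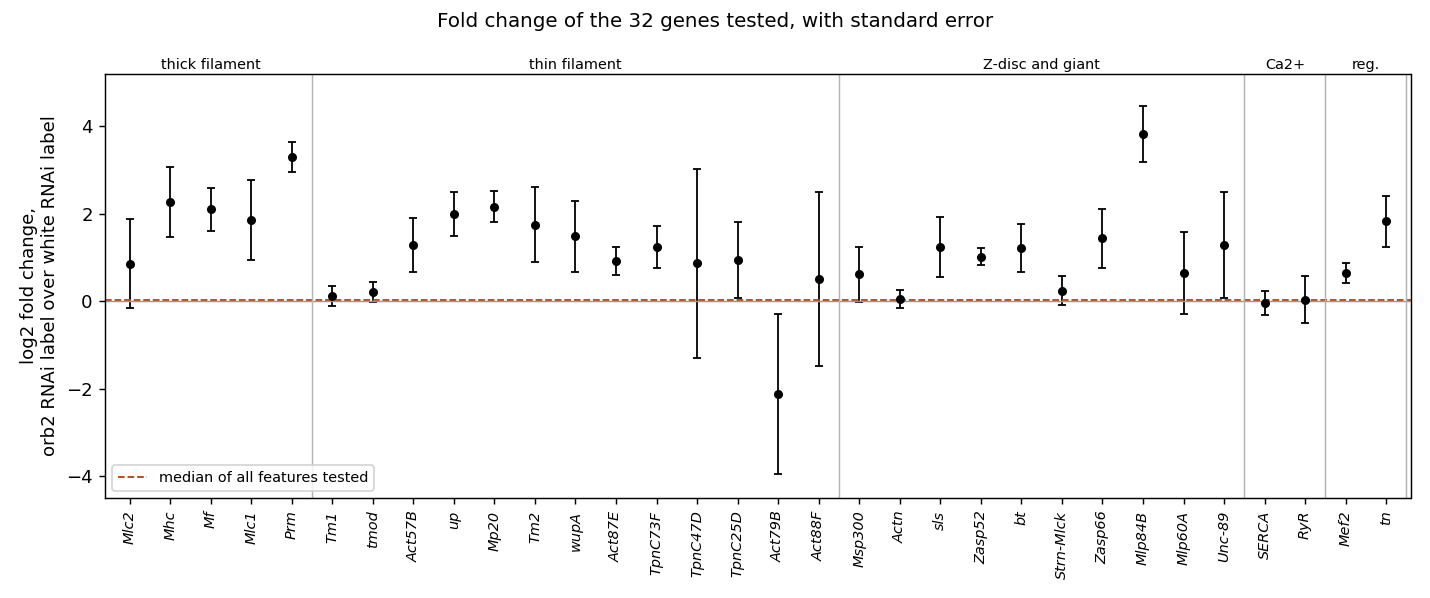
Log2 difference of each of the 32 genes tested, *orb2*-labelled over *white*-labelled libraries, from edgeR with its standard error as a bar. *Mlp84B* at 3.83 and *Prm* at 3.29 are at the top, *SERCA* at -0.04 and *Act79B* at -2.12 are the only genes below 0, and all 32 have an adjusted p of 0.9998 in edgeR's quasi-likelihood test.

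In the Z-disc, the muscle LIM protein gene *Mlp84B* (FBgn0014863, 3R:7112850-7117732, minus strand) had the greatest log2 difference of the 32 genes. It stood at 0.767 and 1.37 CPM in the *white*-labelled libraries (1.07 ± 0.428, SD, n = 2) and at 20.9 and 9.32 CPM in the *orb2*-labelled libraries (15.1 ± 8.16, SD, n = 2). Both *orb2*-labelled values were several times the higher *white*-labelled value, although they differed from each other by over 2-fold. The log2 difference was 3.83 (SE 0.647), with adjusted p = 0.9998 in edgeR and 3.455e-06 in DESeq2. Its relative *Mlp60A*, a smaller LIM protein of muscle, had 1.05 and 6.68 CPM in the *white*-labelled and 5.04 and 7.03 CPM in the *orb2*-labelled libraries, and its groups overlapped.

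The Zasp proteins hold alpha-actinin at the Z-disc. *Zasp52* was nearly level within each label, at 31.4 and 32.6 CPM in the *white*-labelled libraries (SD 0.798, n = 2) and 63.7 and 66.2 CPM in the *orb2*-labelled libraries (64.9 ± 1.74, SD, n = 2). Its log2 difference of 1.02 (SE 0.196) had adjusted p = 0.9998 in edgeR and 0.0254 in DESeq2. *Zasp66* had 4.70 and 17.5 CPM in the *white*-labelled and 34.9 and 25.4 CPM in the *orb2*-labelled libraries, again without overlap. *Actn*, the alpha-actinin gene itself, had 287.4 and 240.1 CPM in the *white*-labelled and 274.0 and 273.1 CPM in the *orb2*-labelled libraries. For *Actn* the *orb2*-labelled values lay inside the *white*-labelled range (log2 difference 0.05, SE 0.205, adjusted p = 0.9998 in edgeR), and 20.7% of its exon bases are shared with the neighbouring gene *east*.

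For the giant proteins it was *white*-labelled replicate 2, not replicate 1, that held the lowest value. *sls* (FBgn0086906, 3L:2039681-2115611, minus strand), which encodes the titin-like protein Sallimus that spans from Z-disc to thick filament, had 66.1 and 16.3 CPM in the *white*-labelled and 114.5 and 80.2 CPM in the *orb2*-labelled libraries. The groups did not overlap (log2 difference 1.24, SE 0.696, adjusted p = 0.9998 in edgeR), and the difference was 2.59 without *white*-labelled replicate 1 and 0.56 without replicate 2. *bt*, which encodes Projectin, another titin-like protein, had 28.7 and 13.3 CPM in the *white*-labelled and 65.7 and 31.6 CPM in the *orb2*-labelled libraries. The lowest *orb2*-labelled value of *bt* was barely above its highest *white*-labelled value.

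*Unc-89*, the obscurin gene of the M-line, had 3.71 and 0.305 CPM in the *white*-labelled and 3.58 and 6.29 CPM in the *orb2*-labelled libraries, the value of *white*-labelled replicate 2 being 10 counts. *Strn-Mlck*, a giant gene of the myosin light chain kinase family, had 23.9 and 15.2 CPM in the *white*-labelled and 25.4 and 20.9 CPM in the *orb2*-labelled libraries. *Msp300*, which encodes a nesprin that links nuclei to the cytoskeleton, had 416.9 and 119.0 CPM in the *white*-labelled and 462.7 and 356.5 CPM in the *orb2*-labelled libraries. All 3 overlapped between labels, each with *white*-labelled replicate 2 lowest. The log2 difference of *Msp300* was 0.61 (SE 0.623, adjusted p = 0.9998 in edgeR) and was -0.025 without that library.

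Neither calcium handling gene separated the labels. *SERCA*, the pump that returns calcium to the reticulum, had 413.7 and 279.2 CPM in the *white*-labelled and 366.7 and 307.6 CPM in the *orb2*-labelled libraries (log2 difference -0.04, SE 0.281, adjusted p = 0.9998 in edgeR). *RyR*, the channel that releases calcium from it, had 35.7 and 13.8 CPM in the *white*-labelled and 19.4 and 31.4 CPM in the *orb2*-labelled libraries. For both, the *white*-labelled libraries were the highest and the lowest of the 4. *SERCA* shares 16% of its exon bases with the neighbouring gene *CG2812*.

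Both regulators were higher in the *orb2*-labelled libraries. *Mef2*, the transcription factor of muscle differentiation, which is also used in brain neurons, had 42.3 and 36.4 CPM in the *white*-labelled and 55.5 and 67.2 CPM in the *orb2*-labelled libraries, a log2 difference of 0.64 (SE 0.225, adjusted p = 0.9998 in edgeR). *tn*, which encodes Thin, a TRIM protein needed to maintain sarcomeres, had 3.72 and 3.57 CPM in the *white*-labelled and 18.7 and 7.13 CPM in the *orb2*-labelled libraries. Neither overlapped, and *orb2*-labelled replicate 1 was well above replicate 2 for *tn* but not for *Mef2*.

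Dividing CPM by exon length allows levels to be compared between genes. On this scale, *Act57B* had the highest level of the 34 genes in the *orb2*-labelled libraries (85.5 and 98.4 CPM per kb) but not in the *white*-labelled libraries (16.7 and 58.8 CPM per kb). *Actn* was the highest in *white*-labelled replicate 1, at 54.5 CPM per kb, and *Tm1* in *white*-labelled replicate 2, at 59.9 CPM per kb. *Mhc* had 0.596 and 3.07 CPM per kb in the *white*-labelled and 8.88 and 8.73 CPM per kb in the *orb2*-labelled libraries, and *sls* had 1.12 and 0.277 against 1.94 and 1.36 CPM per kb. Exon length counts all annotated exons, so genes with many alternative exons come out low.

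The level of the other genes relative to *Mhc* was also compared per kb. On this scale, *Mlc2* was 4.86 and 5.16 times *Mhc* in the *orb2*-labelled libraries, against 7.41 and 14.4 times in the *white*-labelled libraries. *Mlc1* was 2.72 and 3.11 times *Mhc* in the *orb2*-labelled and 2.96 and 4.07 times in the *white*-labelled libraries. The ratio of *Mlc1* thus moved little over the 4 libraries, whereas *Actn* was 5.85 and 5.94 times *Mhc* in the *orb2*-labelled libraries but 91.4 and 14.8 times in the *white*-labelled libraries. Over the 32 genes, Pearson's r of log2 CPM was 0.964 between the *orb2*-labelled replicates and 0.690 between the *white*-labelled replicates. This is a description over genes, which share each library's depth and are not independent replicates. The *white*-labelled value includes *TpnC47D* (0 and 312 counts) and *Act88F* (30 and 0 counts), whose log2 values at 0 rest on the 0.5 count added. Pearson's r without them was not computed.

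Within the *white* label, 19 of the 32 genes tested differed by more than 2-fold between replicates, beside 34.4% of all features. In 13 of them replicate 2 was the higher, beside 15.8% of all features, and in 6 replicate 1 was, beside 18.6%. Within the *orb2* label, 4 of the 32 differed by more than 2-fold, beside 15.4% of all features. The lowest of the 4 libraries was *white*-labelled replicate 1 for 17 of the 32 genes, beside 30.8% of all features, and *white*-labelled replicate 2 for 14, beside 41%. The remaining gene was *Act79B*, lowest in *orb2*-labelled replicate 1.

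Each *white*-labelled library can also be set against the mean of the *orb2*-labelled libraries. The median log2 ratio over the 32 genes was -1.81 for replicate 1 and -0.90 for replicate 2. For the 5 thick filament genes tested these medians were -3.32 and -1.52, and for the 13 thin filament genes -2.45 and -0.71. For the 10 genes of the Z-disc and giant proteins the order was the other way round, at -0.60 for replicate 1 and -1.38 for replicate 2.

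Which *white*-labelled replicate was lower varied with the length of the gene. The 15 genes tested with under 3000 bases of exon had a median log2 ratio of replicate 2 over replicate 1 of 2.31, and the 17 longer genes of -0.28. Spearman's rho between this ratio and exon length was -0.63 over the 32 genes, and -0.50 over 10421 protein-coding features, as a description over genes. Protein-coding features in general had medians of 0.33 below and -0.49 above that length. Most of the short sarcomere genes therefore lay well over the general trend, with *Act87E* and *Act88F* (30 and 0 counts in these libraries) as exceptions below it. The *orb2*-labelled replicates had rho -0.19 over the same 32 genes. When each library's trend on exon length was taken out, the median log2 difference between the labels was 1.48. Of the genes tested, *TpnC47D*, *Unc-89* and *Msp300* then lay above in both *orb2*-labelled libraries. *Mef2* no longer did, and its log2 difference on this scale was 0.38. The share of all features lying above on this scale was not computed, so these changes have no baseline.

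**Figure D3:**
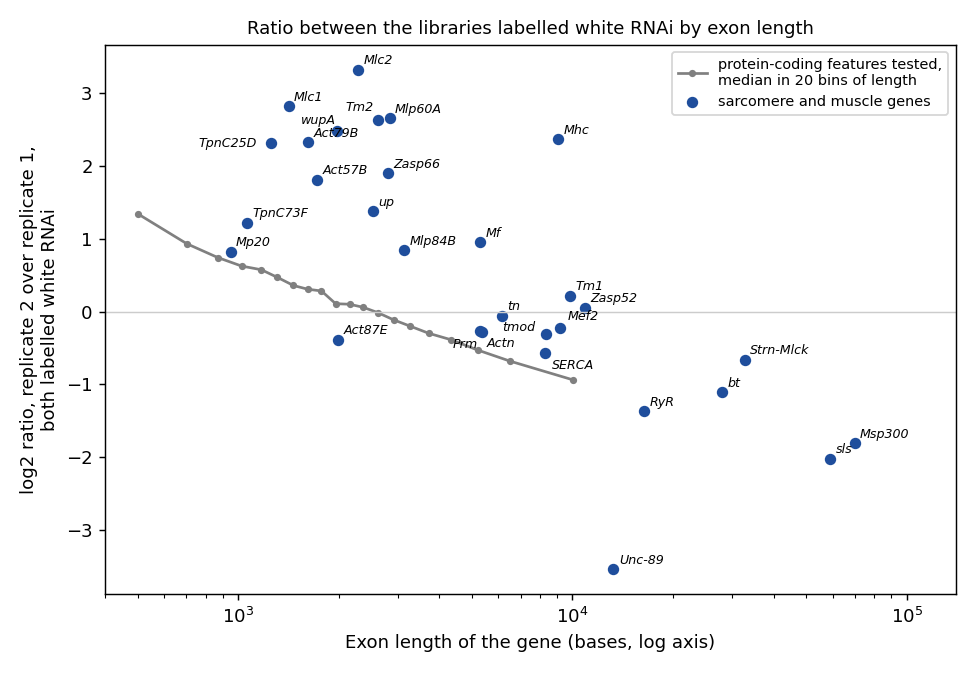
Log2 ratio of replicate 2 over replicate 1, both labelled *white* RNAi, against exon length in bases on a log axis; points are 30 of the 32 genes tested (*TpnC47D* and *Act88F*, each with 0 counts in 1 of these libraries, are left out) and the line joins medians of protein-coding features in 20 bins of length. Most genes under 3000 bases, such as *Mlc2* and *Mlc1*, lie above the line, and *Unc-89*, *sls* and *Msp300* lie lowest.

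The non-muscle counterparts of the filament genes did not separate the labels. Of 7 genes for cytoplasmic actin, non-muscle myosin II and their partners, 0 were higher or lower in both *orb2*-labelled libraries. Of all features tested, 18.5% lay above in this way and 11.7% below. The median log2 difference of the 7 genes was -0.14. *Act5C*, a cytoplasmic actin, had 7896 and 9160 CPM in the *white*-labelled and 8135 and 6605 CPM in the *orb2*-labelled libraries. *zip*, the non-muscle myosin II heavy chain, had 1044 and 566 CPM in the *white*-labelled and 1084 and 883 CPM in the *orb2*-labelled libraries. The other cytoplasmic actin *Act42A*, the light chains *sqh* and *Mlc-c*, and the profilin and cofilin genes *chic* and *tsr* overlapped in the same way. The summed level of the 6 thick filament genes was 29.9 and 164.5 CPM in the *white*-labelled and 322.3 and 285.9 CPM in the *orb2*-labelled libraries.

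Other muscle genes were read from further lists. Of 8 further sarcomere and sarcomere assembly genes, 6 were tested, with a median log2 difference of 0.41. In edgeR 0 were called (1 at an unadjusted p under 0.05, beside 3.68% of all features higher), and in DESeq2 0. Above in both *orb2*-labelled libraries were 2, beside 18.5% of all features. The 2 were *cher*, which encodes the actin cross-linker filamin, at 87.4 and 57.0 CPM in the *white*-labelled and 136.9 and 167.5 CPM in the *orb2*-labelled libraries, and *stv*, a chaperone partner at the Z-disc, at 29.2 and 43.2 against 46.9 and 71.8 CPM. Both genes are also used outside muscle.

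Genes for the attachment of muscle, its specification and its membrane had medians nearer to that of all features than the thick filament genes. Over all features tested, 18.5% lay above in both *orb2*-labelled libraries and 11.7% below in both. For 12 muscle attachment and dystrophin complex genes the median log2 difference was 0.05, with 1 above and 1 below in both libraries, and *rhea*, the talin gene, had 810.3 and 361.4 CPM in the *white*-labelled and 734.2 and 666.2 CPM in the *orb2*-labelled libraries. For 14 genes of muscle specification and myoblast fusion, 12 of them tested, it was 0.19, with 3 above and 0 below. In that list *lmd* had 0 counts in every library and *nau*, the fly MyoD gene, had counts in *orb2*-labelled replicate 2 alone (14 counts). *Him*, which encodes an inhibitor of Mef2 in muscle progenitors, had 6 and 0 counts in the *white*-labelled and 153 and 61 counts in the *orb2*-labelled libraries. *Him* passed the filter on low counts only through the libraries where it was high, so its fold difference and p are not given. These 3 genes (*lmd*, *nau* and *Him*) were singled out after their values were seen. For 9 muscle membrane and neuromuscular receptor genes, 8 of them tested, the median was 0.25, with 1 above and 0 below, and *GluRIIA*, the glutamate receptor subunit of larval muscle, had 3.45 and 1.49 CPM in the *white*-labelled and 2.97 and 2.66 CPM in the *orb2*-labelled libraries. None of these genes was called by edgeR or DESeq2.

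**Figure D4:**
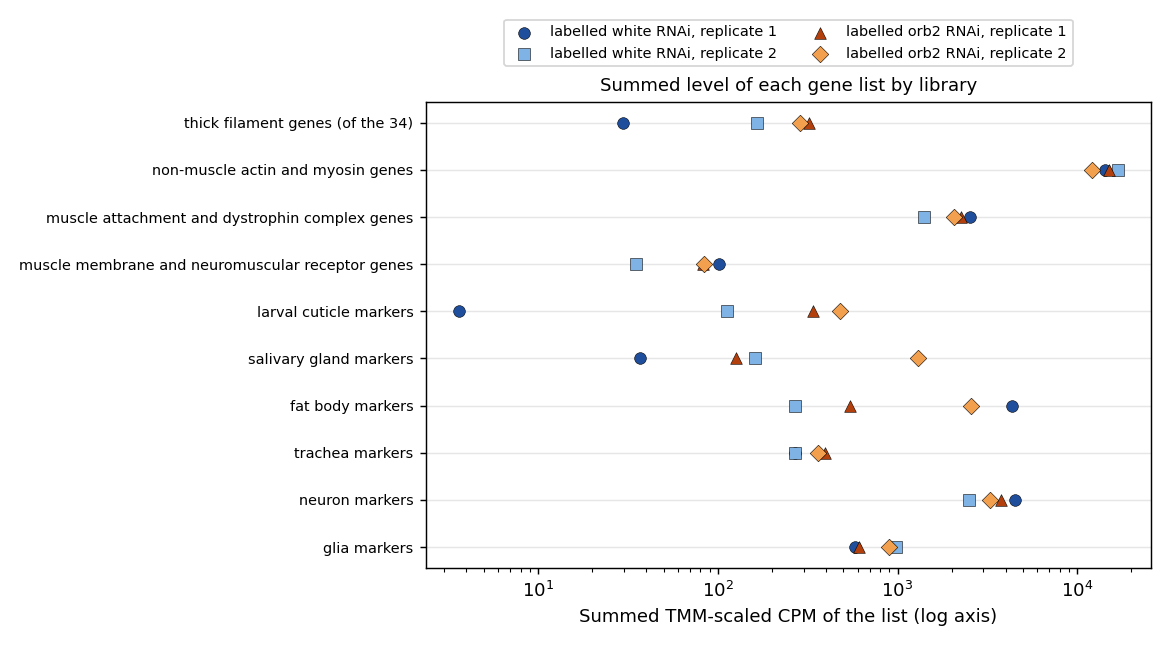
Summed CPM of gene lists in each library, on a log axis, with symbols as in the plot of levels by gene. The thick filament genes run from 29.9 to 322.3 CPM and the cuticle genes (drawn as larval cuticle markers) from 3.64 to 477.8 CPM. Both are lowest in *white*-labelled replicate 1, while the non-muscle actin and myosin genes stay between 12120 and 16750 CPM.

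Markers of some other tissues also differed between libraries. Of 6 cuticle genes, 4 were higher in both *orb2*-labelled libraries. Of all features tested, 18.5% lay above in this way and 11.7% below. The cuticle genes were lowest in *white*-labelled replicate 1 in 5 of 6 cases, beside 30.8% of all features. Their sum was 3.64 and 112.8 CPM in the *white*-labelled and 340.2 and 477.8 CPM in the *orb2*-labelled libraries, the same order of labels and of *white*-labelled replicates as the thick filament genes. *Lcp4*, a larval cuticle protein, had 1.09 and 63.4 CPM in the *white*-labelled and 157.1 and 295.1 CPM in the *orb2*-labelled libraries, and 2 others of the list had 0 counts in *white*-labelled replicate 1. The 6 salivary gland genes summed to 37.1 and 161.5 CPM in the *white*-labelled and 126.6 and 1305 CPM in the *orb2*-labelled libraries, with 3 above in both and none at 0. They too were lowest in *white*-labelled replicate 1 in 5 of 6 cases. Their median log2 difference was 3.45, beside 2.12 for the cuticle genes. DESeq2 without shrinkage called 2 of them higher, beside 0.607% of all features, and 0 of the cuticle genes. The 5 tracheal genes summed to 269.1 and 269.6 CPM in the *white*-labelled and 394.8 and 360.1 CPM in the *orb2*-labelled libraries, with 3 above and 1 below. Their part in the result was not tested.

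The remaining tissue lists were ordered in other ways. The 6 fat body genes had their highest sum in *white*-labelled replicate 1, the library in which most sarcomere genes were lowest, at 4336 and 269.7 CPM in the *white*-labelled and 543.9 and 2568 CPM in the *orb2*-labelled libraries. The 6 hemocyte genes summed to between 402.2 and 537.6 CPM, with 2 above in both *orb2*-labelled libraries, and the 5 genes of the wing and leg discs to between 246.8 and 398.5 CPM, with 1 above. The 5 ring gland genes summed to between 397.1 and 589.3 CPM, with 3 of them below in both *orb2*-labelled libraries. Among the lists of the brain itself, 1 of 12 neuron genes, 1 of 5 neuroblast genes and 1 of 6 glia genes were above in both, and none was below. For all these lists, the shares over all features tested were 18.5% above and 11.7% below.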

How the data were processed

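RNA was measured in 4 libraries, 2 per label. Per the labels and the study's methods, the authors trimmed reads with Trim Galore, aligned them with HISAT2 to the Ensembl BDGP6 genome and counted them per feature with featureCounts. The deposited values are whole-number counts with no stated normalization, though they sum to more than the reads given in the study's methods, so p-values that treat each count as 1 read may be affected. Strand and multiple-match settings are not given in the sources used here, and the sources name different TruSeq kits. The members and lists were chosen with earlier results of these data known. Genes were matched by FlyBase identifier (100% of the 34), with names and positions from BDGP6.54, Ensembl release 115. The *unc-45* gene of one list was not matched and was not used here.

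Counts were scaled by TMM and tested across all 13082 features that passed filterByExpr with edgeR 4.0.16 (quasi-likelihood, no block, R 4.3.3, limma 3.58.1), using Benjamini-Hochberg adjustment, an absolute log2 difference over 0.5 and an adjusted p under 0.05. An exact permutation test of 2 against 2 libraries cannot go below p = 0.333, so none was used. DESeq2 1.42.0, RLE size factors, no filter, other thresholds, a replicate block, leaving out each library and taking out the length trend (lowess, span 0.3, on log2 CPM) were alternatives. All genes were named with their values; fold differences with errors were given for the 10 with the highest mean CPM, the 5 with the largest absolute difference and the exceptions to their group (called by DESeq2, or below 0). From other lists at most the 3 genes of highest mean CPM were named, apart from the non-muscle list and those said to be singled out. Figures were drawn with matplotlib 3.10.9 in Python 3.11.15.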

Additional observations from a re-analysis of the deposited data

How the results depend on the processing

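Features called higher in the *orb2*-labelled libraries numbered 0 in edgeR without a block, 89 in DESeq2 without shrinkage and 32 with its prior. Features called lower numbered 0, 40 and 6 in these fits, and the sarcomere and muscle genes called numbered 0, 6 and 6, the same 6 genes in both DESeq2 fits. The sample numbers do not establish pairs (the deviations of same-numbered libraries correlated at Pearson's r 0.171 over 13082 features, with 2 pairs). With the replicate block edgeR called 62 features higher and 11 lower and 6 of the genes, 5 of them shared with DESeq2 (*Mhc*, adjusted p = 0.01192, in place of *Zasp52*, adjusted p = 0.2736). The log2 difference of *orb2* was 2.28 in DESeq2, 1.58 with its prior and 2.22 with the block, past the threshold in each. RLE size factors, no filter on low counts, an adjusted p under 0.01 and no minimum difference gave 0 calls in each direction.

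Leaving out 1 library gave 0 to 91 features called higher, 0 to 51 called lower and 0 to 6 of the genes called. The 91 came without *orb2*-labelled replicate 1 (28 without replicate 2), and the lower calls were 45 and 51 without *orb2*-labelled replicates 1 and 2 and 1 without *white*-labelled replicate 1. The lone library of a label is then assumed to vary like the other label's pair. The median of the genes ran from 0.94 (without *white*-labelled replicate 1) to 1.89 (without *white*-labelled replicate 2), and *orb2* from 1.74 to 2.71, called without *orb2*-labelled replicate 2 (adjusted p = 0.0001676 in edgeR). *Actn* ran from -0.072 to 0.20, *Msp300* from -0.025 to 1.80 and *SERCA* from -0.30 to 0.29, each changing sign. The median was 1.24 over the 29 genes with at least 10 counts in every library, an alternative chosen after seeing the data. Counts of genes above in the *orb2*-labelled libraries are not given with 1 library left out. Fewer libraries then have to be ordered, and the share over all features was not computed for that case. The causes were not tested. With 2 libraries a label, the spread of the *white*-labelled pair limits the precision of every difference.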
